A study of Mus musculus with 10 samples.

Results

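The Hox genes of clusters a to d were followed in sorted CD31+ CD45- cells of mouse lung. All genes named Hox with a cluster letter and a paralogue number were taken by symbol, which gave 39 of the 24538 genes in the count tables: 11 in Hoxa, 10 in Hoxb, 9 in Hoxc and 9 in Hoxd. The rule used symbols and no measured value, but the gene family was chosen with earlier results of these data known. Bulk RNA was sequenced from 5 libraries of normal lung and 5 libraries of lung metastases, all from wild type C57BL6/J mice with an age tag of 8 to 10 weeks. Metastases came from E0771-LG, a mouse mammary tumour line, given by tail vein to females of 6 to 8 weeks. Nodules below 1 mm were dissected under a microscope and pooled from 2 to 4 mice, so an individual animal cannot be followed. No label says whether the 5 normal libraries are separate animals, and p-values measure the spread between these libraries. Both groups were digested for 30 min at 37 °C with alpha-amanitin and actinomycin D, which block transcription, and were sorted for CD31, an endothelial adhesion molecule, and against CD45, a leukocyte protein.

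Hox proteins are homeodomain transcription factors that give cells their position along the body axis in the embryo. Genes at the low-numbered, anterior end of each cluster are switched on earlier and closer to the head than genes at the high-numbered, posterior end, and adult cells often keep the code of the place they came from. Hoxa5 and Hoxb5 are known for their roles in lung formation, Hoxa3 and Hoxd10 have been linked to opposite behaviour of endothelial cells in vessel growth, and posterior Hoxc and Hoxd genes are known for hindlimb, tail and trunk patterning.

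In GENCODE M21 (GRCm38) the Hoxa cluster lies on chromosome 6 from 52155590 to 52260880 on the minus strand, Hoxb on chromosome 11 from 96194316 to 96368256, Hoxc on chromosome 15 from 102921103 to 103036852 and Hoxd on chromosome 2 from 74668310 to 74765142, the last 3 on the plus strand. A RefSeq promoter (GRCm38.p6) was matched for 22 of the 39 genes, 6 of them among the 10 genes with enough counts for a test. The 250 bases before the start are printed for 3 genes, Hoxa5, which fell in metastases, and Hoxd8 and Hoxd10, which rose. The window of Hoxa3, which also fell, is not printed. They are written 5′ to 3′ on the strand of the gene, and capitals mark CCAAT on either strand. The Hoxa5 window is chr6:52204588-52204837 (minus), the Hoxd8 window chr2:74704365-74704614 (plus) and the Hoxd10 window chr2:74691641-74691890 (plus).
Hoxa5: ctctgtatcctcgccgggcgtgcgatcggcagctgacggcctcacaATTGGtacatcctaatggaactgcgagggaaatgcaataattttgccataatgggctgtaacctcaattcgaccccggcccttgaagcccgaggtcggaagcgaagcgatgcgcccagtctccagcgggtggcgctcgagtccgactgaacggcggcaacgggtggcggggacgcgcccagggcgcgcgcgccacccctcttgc
Hoxd8: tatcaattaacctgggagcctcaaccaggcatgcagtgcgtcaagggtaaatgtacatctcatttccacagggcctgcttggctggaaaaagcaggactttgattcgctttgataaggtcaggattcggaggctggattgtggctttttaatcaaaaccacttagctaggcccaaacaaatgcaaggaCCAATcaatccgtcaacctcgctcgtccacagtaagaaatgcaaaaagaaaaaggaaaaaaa
Hoxd10: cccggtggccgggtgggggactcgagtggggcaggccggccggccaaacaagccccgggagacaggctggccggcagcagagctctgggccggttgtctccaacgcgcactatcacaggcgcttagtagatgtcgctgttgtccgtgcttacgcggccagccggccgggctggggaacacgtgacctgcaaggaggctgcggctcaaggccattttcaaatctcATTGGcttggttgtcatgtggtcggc

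Each of the 3 windows held 1 CCAAT, a motif present in 33.8% of 32851 mouse promoter windows of this length. It began 204 bases before the start in Hoxa5, 62 in Hoxd8 and 26 in Hoxd10. Among the windows of tested genes that are not printed, Hoxa3 and Hoxb4 held 0 CCAAT and Hoxa2 held 4, so the motif was not shared by all genes that fell. The Hoxa5 and Hoxd10 windows were rich in G and C, at 63.6% and 65.6% with 28 and 20 CpG, against medians of 52.4% and 6 CpG over all windows. Hoxd8 had 44.4% and 6 CpG, so the genes that rose did not share this feature. The E-box CACGTG was found once in Hoxd10 (6.02% of windows). None of the 3 windows held TATAAA (12.4%), GGGCGG (32.7%), TGATNNAT, a HOX and PBX composite (7.68%), or TAATTA, a homeodomain palindrome (4.84%), on either strand.

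Gene counts came to 41.0 to 79.7 M in normal lung and 21.7 to 54.3 M in metastases, and the Hox genes took 0.0124 to 0.0230% and 0.00843 to 0.0216% of them. One count was worth 0.0120 to 0.0496 CPM (counts-per-million after TMM scaling). The endothelial label was checked against 19 pan-endothelial genes. All 19 were tested, and 16 fell in metastases and none rose (median log2 fold change -2.37). Their summed level was 12500 to 24820 CPM in normal lung and, in metastasis replicates 1 to 5, 7461, 4686, 4478, 1704 and 1155 CPM. Cdh5 and Pecam1, which encodes CD31, had the highest means over all 10 libraries, at 5519 ± 2332 and 2415 ± 864 CPM (SD, n = 5) in normal lung, against 1220 ± 790 and 644 ± 508 CPM in metastases, and Cldn5 (-3.75) and Sox18 (-3.60) had the largest falls on the log2 scale. Of 8 tested fibroblast genes, 6 rose in metastases, with a summed level of 7.89 to 81.4 CPM in normal lung and 523 to 1038 CPM in metastases. All 10 proliferation genes rose, Birc5 (6.97) and Bub1 (6.93) by the largest log2 fold changes, with Top2a (929 ± 240 CPM) and Mki67 (622 ± 144 CPM) the most abundant in metastases. Birc5, Ccnb1 and Aurkb were below 1 CPM in every normal library, so they entered the test through metastases and had to differ. Over all tested genes 12% rose and 8.22% fell. In bulk RNA, fewer cells of a type and less RNA per cell cannot be told apart.

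Normal lung expressed a short stretch of the Hoxa and Hoxb clusters. With detection set at 1 CPM or more in at least 3 of 5 libraries, 6 of the 39 genes were detected there: Hoxa2, Hoxa3 and Hoxa5 in Hoxa, and Hoxb3, Hoxb4 and Hoxb5 in Hoxb. No gene of Hoxc or Hoxd and none of the 16 posterior genes (paralogue numbers 9 to 13) reached that level. In metastases 7 genes were detected: Hoxa5, Hoxb3, Hoxb5, Hoxc6, Hoxc10, Hoxd8 and Hoxd10. Hoxa5, Hoxb3 and Hoxb5 were thus detected in both groups, and 29 genes in neither. By paralogue number, 3 of 8 anterior (1 to 3), 3 of 15 central (4 to 8) and 0 of 16 posterior genes were detected in normal lung, against 1, 4 and 2 in metastases.

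**Figure D1:**
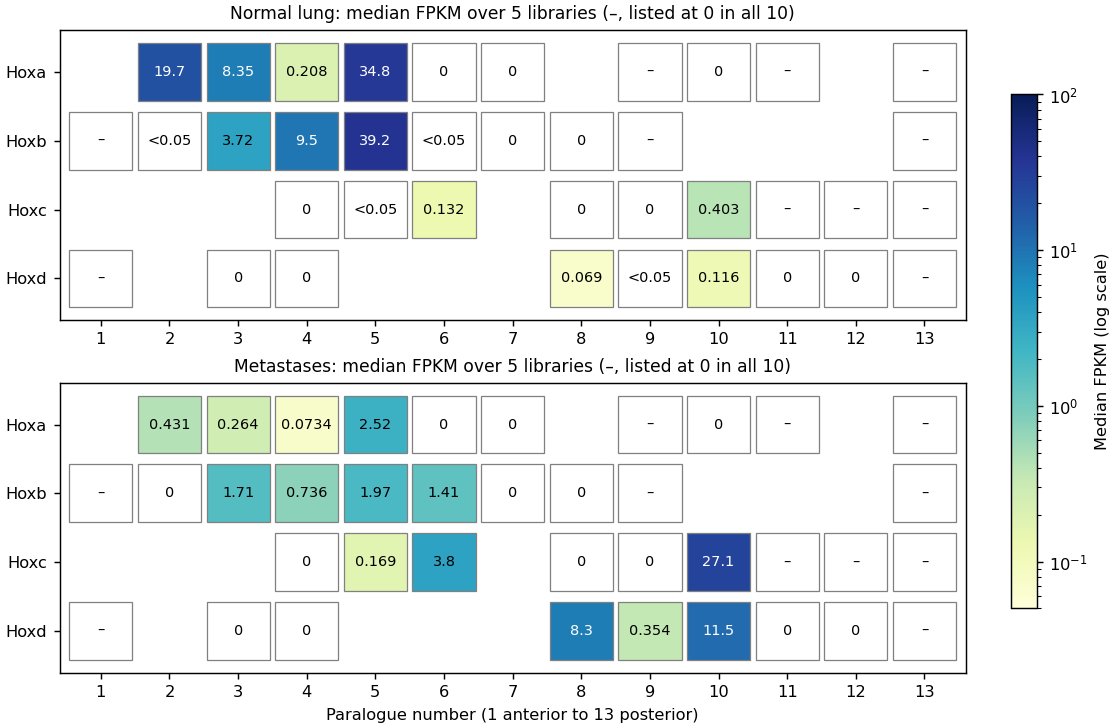
Median level of each Hox gene over 5 libraries, by cluster (rows) and paralogue number (columns), in normal lung (top) and metastases (bottom), as the authors' FPKM, with colour on a log scale and a box for each gene shown. In normal lung the coloured boxes sit mostly in Hoxa and Hoxb at numbers 2 to 5, led by Hoxb5 (39.2) and Hoxa5 (34.8), and in metastases Hoxc10 (27.1), Hoxd10 (11.5) and Hoxd8 (8.30) lead.

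Of the 39 genes, 11 had no count in any library: Hoxa9, Hoxa11, Hoxa13, Hoxb1, Hoxb9, Hoxb13, Hoxc11, Hoxc12, Hoxc13, Hoxd1 and Hoxd13. A count of 0 allows a level of up to 3 counts, which is 0.0359 to 0.149 CPM depending on the library, for counting error alone. Hoxd13, Hoxa13 and Hoxc13, which pattern the most distal and caudal structures, and Hoxb1, which patterns the hindbrain, are among them. Of the 28 genes with any count, 23 had one in normal lung and 25 in metastases.

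Levels per transcript length (the authors' FPKM, fragments scaled by transcript length and depth) showed that Hox expression was led by few genes. The leading gene was Hoxb5 in normal lung replicates 1 to 3 (96.9, 43.1 and 28.3 FPKM) and Hoxa5 in replicates 4 and 5 (61.6 and 68.2 FPKM). The 2 leading genes took 50.3 to 75.8% of the summed Hox FPKM in normal lung. In metastases Hoxc10 led in replicates 2, 4 and 5 (27.1, 60.6 and 32.3 FPKM) and Hoxc6 in replicate 3 (54.6 FPKM). In replicate 1 Hoxa5 (19.3 FPKM) and Hoxc6 (19.2 FPKM) lay side by side. The 2 leading genes took 42.6 to 74.3% of Hox FPKM in metastases, and the first gene differed between libraries.

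The 4 clusters differed in direction. Hoxa summed to 97.6 ± 36.8 CPM in normal lung and 14.6 ± 13.9 CPM in metastases (SD, n = 5 each), and Hoxb to 88.2 ± 56.1 and 19.3 ± 11.98 CPM. Every metastasis library lay below every normal library in both sums. Hoxc summed to 0.584 ± 0.246 CPM in normal lung and 58.4 ± 20.3 CPM in metastases, with no overlap. Hoxd summed to 1.22 ± 2.02 and 39.0 ± 22.8 CPM, and here the groups overlapped, because normal lung replicate 4 held 4.83 CPM and metastasis replicate 3 held 4.17 CPM. The log2 ratio of the Hoxd means was 5.00, and 6.94 without normal lung replicate 4. The sum over all Hox genes overlapped between groups, at 187.6 ± 51.1 and 131.4 ± 28.1 CPM, so the makeup changed more than the total. No test was made of these sums.

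As a share of the summed Hox FPKM, Hoxc and Hoxd together took 0.301 to 4.06% in normal lung and 69.8 to 79.1% in metastases (75.7 ± 3.47%, n = 5). The shares of single clusters within metastases varied more: Hoxc took 38.5 to 73.8% and Hoxd 2.95 to 40.6%, and the metastasis library with the most Hoxc, replicate 3, was the one with the least Hoxd. Posterior genes took 0.181 to 3.73% of Hox FPKM in normal lung and 16.1 to 66.9% in metastases.

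**Figure D2:**
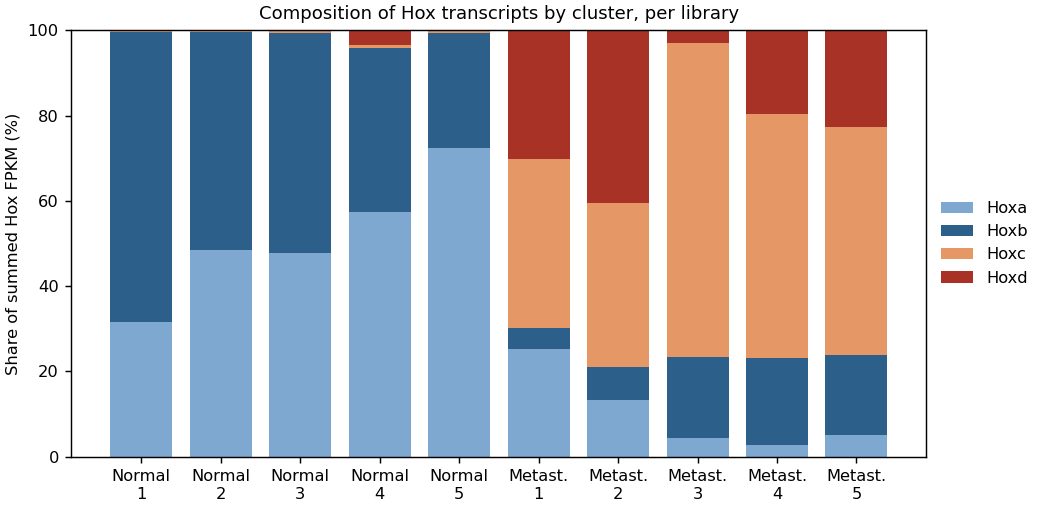
Share of the summed Hox FPKM (vertical axis, percent) that each cluster takes in each library (horizontal axis, 5 normal lung and 5 metastasis replicates). Hoxa and Hoxb fill the bars of normal lung, where Hoxc and Hoxd reach 4.06% at most, and Hoxc and Hoxd fill 69.8 to 79.1% of the bars of metastases.

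Of the 39 genes, 10 had enough counts to be tested between the groups with edgeR's quasi-likelihood test, adjusted by Benjamini-Hochberg over 11823 genes. Hoxc6, Hoxc10, Hoxd8 and Hoxd10 rose in metastases, 4 of 10, where 12% of all tested genes rose. Hoxa3, Hoxa5 and Hoxb5 fell, 3 of 10, where 8.22% of all tested genes fell. The same 4 genes had every metastasis library above every normal library (8.5% of all tested genes), and the same 3 had every one below (6.17%). The 4 that rose were below 1 CPM in all 5 normal libraries and Hoxa3 was below 1 CPM in all 5 metastasis libraries, so these 5 entered the test through the group where they were high and had to differ. Their number is therefore a description of the clusters and not evidence of its own. The same limit holds for the adjusted p-values and repeated fits of these 5 genes. Among listed genes named below, Shox2, Meis3, Aldh1a2, Phf19, Krt8, C1qb, Marco and S100a8 were below 1 CPM in all 5 normal libraries. Rgs5 was below 1 CPM in all 5 metastasis libraries. These listed genes carry the limit too.

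**Figure D3:**
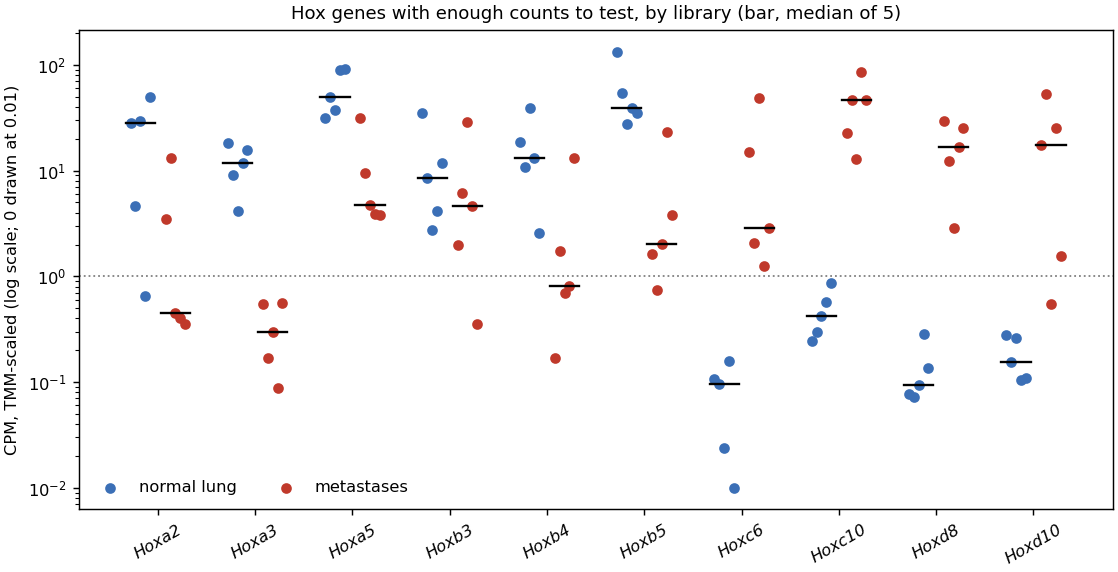
Level of the 10 tested Hox genes in each library, in CPM on TMM-scaled libraries (log axis, a value of 0 drawn at 0.01, bar at the median of 5), with normal lung in blue and metastases in red and the dotted line at 1 CPM. Hoxc6, Hoxc10, Hoxd8 and Hoxd10 are below 1 CPM in all normal libraries and separate fully from the metastases, while Hoxa2, Hoxb3 and Hoxb4 overlap.

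Among the anterior genes, Hoxa3, a factor of pharyngeal and vessel development, was at 18.2, 9.03, 4.19, 11.9 and 15.5 CPM in normal lung replicates 1 to 5. In metastasis replicates 1 to 5 it was at 0.541, 0.168, 0.298, 0.0871 and 0.564 CPM. The groups stood apart and Hoxa3 fell, with a log2 fold change of -5.14 ± 1.32 (SE; adjusted p = 0.00709). The call held when each library was left out in turn (adjusted p 0.00801 to 0.0208). In the annotation 25.4% of Hoxa3 exon bases lie opposite another gene and 8.01% share a strand with one, so its counts are uncertain if strand was not used.

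Hoxa2, which patterns the second pharyngeal arch and hindbrain, was at 28.4, 4.59, 29.7, 0.652 and 50.1 CPM in normal lung. Its metastasis values were 3.52, 13.1, 0.447, 0.406 and 0.353 CPM. The groups overlapped, since normal lung replicate 4 lay below 2 metastasis libraries, and the gene was not called (-2.66 ± 1.24, adjusted p = 0.141). It passed without metastasis replicate 2 (-4.25, adjusted p = 0.032) and with DESeq2 (-2.72, adjusted p = 0.0398).

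Hoxb3, the paralogue of Hoxa3, did not follow it. It was at 35.4, 8.58, 2.73, 4.15 and 11.7 CPM in normal lung and at 2.00, 6.18, 28.8, 4.65 and 0.353 CPM in metastases. One library stood high in each group, normal lung replicate 1 and metastasis replicate 3, and the ranges overlapped almost wholly. The log2 fold change was -0.58 ± 1.13 (adjusted p = 0.774), and 0.28 without normal lung replicate 1. Over 52.9% of its exon bases an antisense gene, Hoxb3os, lies on the other strand. The difference between the 2 paralogues' changes was not tested.

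Of the central genes, Hoxa5, needed for lung and airway formation, was at 31.7, 50.1, 37.1, 89.8 and 91.8 CPM in normal lung. In metastases it was at 31.2, 9.41, 4.71, 3.89 and 3.81 CPM. The groups did not overlap, but metastasis replicate 1 and normal lung replicate 1 differed by less than 1 CPM. Hoxa5 fell by 2.50 ± 0.79 on the log2 scale (adjusted p = 0.0263). Its call was lost on leaving out normal lung replicate 4 or 5 (-2.34 and -2.32, adjusted p 0.069 and 0.0697) or metastasis replicate 4 or 5 (-2.31 for both, adjusted p 0.0608 and 0.0613). Metastasis replicate 1, the library with the most Hoxa5, also had the highest pan-endothelial sum of its group, 7461 CPM. Replicates 4 and 5, with the least Hoxa5 in CPM, had the lowest sums, 1704 and 1155 CPM. In FPKM replicate 1 was also highest in Hoxa5 (19.3). The lowest there was replicate 2 (2.35), with 2.51 in replicate 4 and 2.52 in replicate 5. Hoxb5 was at 1.62 CPM in metastasis replicate 1 and highest, at 23.4 CPM, in replicate 4. Hoxa3 was at 0.541 CPM in replicate 1 and 0.564 CPM in replicate 5, with 16 counts in each, too few to give an order. The part of endothelial content in the Hoxa5 level was not tested beyond the scaling given further on.

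Hoxb5, its paralogue, which takes part in lung branching and marks endothelial precursors, was at 132.6, 54.0, 27.7, 39.3 and 35.1 CPM in normal lung. It was at 1.62, 0.735, 2.04, 23.4 and 3.84 CPM in metastases. Normal lung replicate 1 and metastasis replicate 4 stood well above the rest of their groups, and the groups did not overlap. Hoxb5 fell by 3.19 ± 0.94 on the log2 scale (adjusted p = 0.0181). The call was lost without normal lung replicate 1 (-2.66, adjusted p = 0.0773), and the change was -4.78 without metastasis replicate 4 (adjusted p = 0.0014).

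Hoxb4, known for its effect on blood stem cells, was at 18.8, 10.9, 39.4, 13.1 and 2.59 CPM in normal lung and at 0.169, 1.75, 0.695, 0.813 and 13.3 CPM in metastases. Metastasis replicate 5 fell inside the normal range and the gene was not called (-2.35 ± 1.21, adjusted p = 0.188). Without that library it passed (-4.32, adjusted p = 0.0293).

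Hoxc6, a central gene of thoracic patterning, was at 0.107, 0.0956, 0.0235, 0.156 and 0 CPM in normal lung. In metastases it reached 14.96, 2.05, 48.7, 1.25 and 2.89 CPM. All metastasis libraries were above all normal ones, but their own range was wide, with replicate 3 far above the others. Hoxc6 rose by 7.44 ± 1.64 on the log2 scale (adjusted p = 0.0022), and by 6.05 without metastasis replicate 3 (adjusted p = 0.015).

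Hoxd8, a central gene of the trunk, was at 0.0766, 0.0717, 0.0941, 0.287 and 0.135 CPM in normal lung and at 29.4, 12.4, 2.88, 16.6 and 25.5 CPM in metastases. It had no overlap between groups and rose by 7.02 ± 1.34 (log2; adjusted p = 0.000631). Leaving out single libraries gave 6.72 to 7.47, all with an adjusted p of 0.00277 or less. No other gene overlaps its exons in the annotation.

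The 2 posterior genes were both paralogues of number 10. Hoxc10, known from hindlimb and lumbar identity, was at 0.245, 0.299, 0.424, 0.574 and 0.864 CPM in normal lung. Metastases held 22.5, 46.3, 12.8, 85.6 and 46.5 CPM. The lowest metastasis library was thus well above the highest normal one, and the rise was 6.47 ± 1.03 (log2; adjusted p = 9.79e-05). Hoxc10 passed in all 25 alternative settings tried, under the limit given above for genes that were low in a whole group. Hoxc5 shares 8.70% of its exon bases on the same strand.

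Hoxd10, the paralogue, was at 0.276, 0.155, 0.259, 0.104 and 0.108 CPM in normal lung and at 17.5, 53.1, 0.546, 25.3 and 1.55 CPM in metastases. Metastasis replicates 3 and 5 were low in Hoxd10 while they held 12.8 and 46.5 CPM of Hoxc10, so the paralogues did not keep one ratio across the libraries. Hoxd10 rose by 6.74 ± 1.43 (log2; adjusted p = 0.00158), and by 5.94 without metastasis replicate 2 (adjusted p = 0.00884), the library with the most.

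Scaling changed what could be said of the genes that fell. When libraries were scaled to the 19 pan-endothelial genes, the median over all genes moved from 0.06 to 2.80 and 7130 genes were called higher and 20 lower, against 1420 and 972. On that scale the 4 risen genes passed with log2 fold changes of 9.85 (Hoxc6), 9.42 (Hoxc10), 9.78 (Hoxd8) and 9.30 (Hoxd10). They moved up with the median, so this scaling could not have taken away their rise. On the same scale edgeR called no Hox gene lower, with 0 also at an unadjusted p under 0.05. Hoxa3 was at -2.36 (adjusted p = 0.128), Hoxa5 at -0.46 (adjusted p = 0.681) and Hoxb5, with its sign turned, at 0.35 (adjusted p = 0.791). Against the endothelial genes, then, no fall of a Hox gene passed the test, while all 3 genes lay below the median of all genes on that scale.

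**Figure D4:**
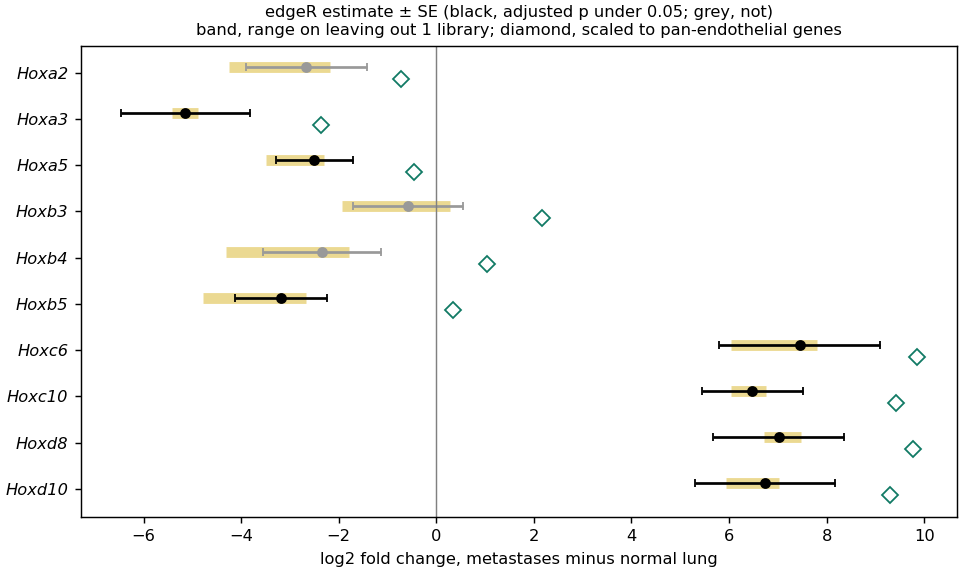
Log2 fold change (metastases minus normal lung, horizontal axis) of the 10 tested Hox genes, with the SE as a bar, the range on leaving out 1 library as a yellow band, and the value after scaling to pan-endothelial genes as a green diamond. The 4 genes of Hoxc and Hoxd lie between 6.47 and 7.44. Endothelial scaling, which moves the median of all genes up to 2.80, moves them higher too. After that scaling Hoxa5 (-0.46) and Hoxb5 (0.35) lie near 0.

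Beyond the 10 tested genes, 18 had counts but did not pass the filter on low counts. In normal lung Hoxa4, Hoxa6, Hoxb7 and Hoxd9 reached 1 CPM in only 1 or 2 libraries. Replicate 2 held Hoxa4 at 5.97 CPM and Hoxb7 at 2.67 CPM. Replicate 4 held Hoxa4 at 2.69, Hoxa6 at 3.44 and Hoxd9 at 4.41 CPM (169 counts). These 4 genes were thus below 1 CPM in normal lung replicates 1, 3 and 5.

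Among metastases the same held for Hoxa2 and Hoxb4, described above, and for Hoxb2, Hoxb6, Hoxc5, Hoxc8, Hoxc9, Hoxd3 and Hoxd9. Hoxc8 had 84 counts in metastasis replicate 4 (2.44 CPM) and 0 in the other 9 libraries. Hoxd9, which lies between Hoxd8 and Hoxd10, was at 5.57 CPM in metastasis replicate 5 (158 counts) and at 0.871 CPM or less in the other 4, so it did not follow its neighbours. Hoxc5, which shares exon bases with Hoxc10, reached 1.78 CPM in replicate 2 and 1.28 CPM in replicate 4. Hoxb2 peaked at 2.33 CPM in replicate 2, Hoxb6 at 2.06 CPM in replicate 4 and Hoxc9 at 1.45 CPM in replicate 5. Hoxd3 is uncertain: it had 64 counts in replicate 1 (2.17 CPM) but is listed at 0 FPKM there, and 62.3% of its exon bases are shared with genes on the same strand, Hoxd4 among them. The remaining 7 genes with a count (Hoxa7, Hoxa10, Hoxb8, Hoxc4, Hoxd4, Hoxd11 and Hoxd12) never reached 1 CPM.

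HOX proteins bind DNA with partners of the PBX and MEIS families. Of 11 partner genes 10 were tested, 2 rose and 1 fell (median -0.50, against 0.06 over all tested genes), and Pbx4 had no count. The shares of all tested genes that rose and fell were 12% and 8.22%. Meis1 was at 310.4, 177.9, 249.9, 317 and 165 CPM in normal lung and 138, 58.2, 54.7, 27.4 and 15.1 CPM in metastases. It fell by 2.06 ± 0.53 (log2; adjusted p = 0.00677), with no overlap, and stood at 0.18 after endothelial scaling. Meis3 was at 0.0956 to 0.376 CPM in normal lung and at 1.59, 53.2, 67.0, 0.493 and 2.22 CPM in metastases, a rise of 6.47 ± 1.45 (adjusted p = 0.00251). Tgif1, a related repressor, rose by 2.17 ± 0.77 (adjusted p = 0.0486), a call lost in 7 of 10 fits that left out 1 library (adjusted p up to 0.119). Meis2 was at 119 ± 57.5 CPM in normal lung and 81.3 ± 74.0 CPM in metastases and did not pass (-0.55, adjusted p = 0.567).

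**Figure D5:**
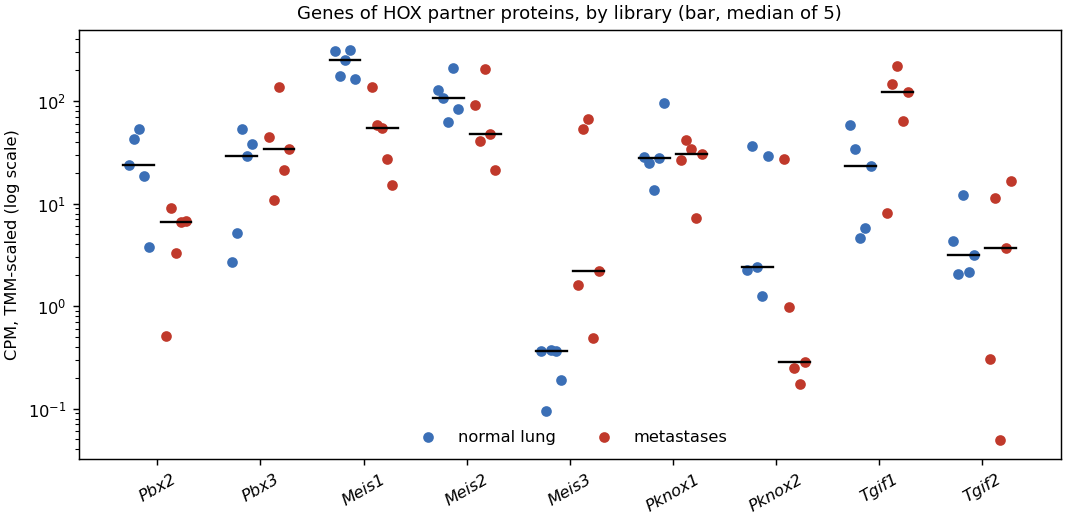
Level of 9 genes of HOX partner proteins in each library, in CPM on TMM-scaled libraries (log axis, bar at the median of 5), with normal lung in blue and metastases in red. Meis1 is lower in every metastasis library than in any normal one, Meis3 is higher in every one, and the other genes overlap.

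Polycomb proteins keep Hox clusters silent and trithorax proteins keep them active. Of 20 polycomb genes 19 were tested, and 3 rose and none fell (median 0.42). Among all tested genes 12% rose and 8.22% fell, so a few calls in a list are not a trait of the list. Ezh2, the main H3K27 methyltransferase, was at 25.9 ± 9.36 CPM in normal lung and 149 ± 69.3 CPM in metastases (2.53 ± 0.55, adjusted p = 0.00196). Phf19 rose by 5.35 ± 1.46 (adjusted p = 0.0109). Cbx8 passed through metastasis replicate 2 alone, which held 72.9 CPM against 0.305 to 0.447 in the other 4, and was at -0.69 without it (adjusted p = 0.79). Ezh2 is also a gene of dividing cells, and the 10 proliferation genes summed to 31.5 to 138 CPM in normal lung and 1564 to 3435 CPM in metastases. Their part in it was not tested. All 12 trithorax genes were tested. Wdr5 rose by 2.96 ± 0.99 (adjusted p = 0.0359), a call that 5 of 10 leave-out fits lost, with 1.85 and an adjusted p of 0.226 without metastasis replicate 3. Kdm6a, an H3K27 demethylase, fell by 1.48 ± 0.47 (adjusted p = 0.0279), a call lost in 6 of 10.

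Retinoic acid switches on anterior Hox genes in the embryo. Of 18 genes of its supply, breakdown and reception 10 were tested, 1 rose and 1 fell (median -0.14). That is near the shares of all tested genes, of which 12% rose and 8.22% fell. Aldh1a2, which encodes an enzyme that makes retinoic acid, was at 0.175 ± 0.0526 CPM in normal lung. In metastases it was at 6.50, 25.4, 5.66, 1.86 and 51.9 CPM, a rise of 6.68 ± 1.36 (adjusted p = 0.00112). Aldh1a2 is also expressed by mesothelium, and the 2 mesothelial genes of highest level, Upk3b and Lrrn4, were at up to 17.5 CPM (metastasis replicate 1) and 15.9 CPM (metastasis replicate 5), and their part was not tested. Dhrs3, which turns retinaldehyde back to retinol and is induced by retinoic acid, fell by 2.10 ± 0.63 (adjusted p = 0.0189), and missed the threshold without normal lung replicate 1 (-1.71, adjusted p = 0.0813).

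Noncoding genes within the clusters were sparse. Of 28 listed, 17 were in the count tables, 8 of these had no count, and 1 was tested. Hotairm1, which lies within Hoxa on the opposite strand, was at 1.57 to 20.4 CPM in normal lung and 0.141 to 11.97 CPM in metastases and was not called (-0.75 ± 1.29, adjusted p = 0.74). Hoxaas2, antisense within Hoxa, had 658 counts in normal lung and 13 in metastases. In normal lung replicates 1 to 5 it was at 2.34, 4.03, 0.0235, 0 and 4.51 CPM. Hoxa3 was at 4.19 and 11.9 CPM in replicates 3 and 4, where Hoxaas2 was lowest. The exons of the 2 genes overlap in the annotation, and the effect of this on either count was not tested.

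Of 18 listed protein-coding genes that flank the clusters, 9 were tested, and 2 rose and none fell (median 1.17). For all tested genes the shares were 12% risen and 8.22% fallen. Snx10, near Hoxa, rose by 4.35 ± 0.81 on the log2 scale (adjusted p = 0.000469). Cbx5, next to Hoxc, which encodes heterochromatin protein HP1 alpha, rose by 2.44 ± 0.39 (adjusted p = 9.75e-05). Evx1 and Evx2, the homeobox genes at the posterior ends of Hoxa and Hoxd, had no count in any library, like Hoxa13 and Hoxd13 beside them.

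Homeobox genes outside the clusters moved in both directions. Of 26 listed, 8 were tested, 3 rose and 4 fell (median -1.89), where 12% of all tested genes rose and 8.22% fell. No count was found for 13, Cdx1, Cdx2 and Cdx4, which switch on Hox genes in the embryo, among them. Shox2, a limb gene, was at 0 to 0.0459 CPM in normal lung and 9.81, 5.39, 8.39, 6.36 and 9.66 CPM in metastases (8.02 ± 1.62, adjusted p = 0.00102). It entered the test through metastases alone. Prrx1, a gene of limb and fibroblast mesenchyme, rose from 4.45 ± 1.99 to 363 ± 121 CPM (6.35 ± 0.53, adjusted p = 1.23e-08). Meox1, a somite gene, fell by 3.37 ± 0.90 (adjusted p = 0.00957). Hhex, which acts in early endothelium, fell by 3.18 ± 0.96 (adjusted p = 0.0202), and missed the threshold without normal lung replicate 4 (adjusted p = 0.0591).

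The other cell types the gate could hold were set beside the Hox genes. Counts of called genes below stand against 12% risen and 8.22% fallen over all tested genes. In metastasis replicates 1 to 5 the fibroblast list summed to 861, 1038, 672, 523 and 583 CPM, while Hoxc and Hoxd together summed to 86.7, 116, 66.4, 134 and 84.3 CPM. In all 5 libraries both sums lay above every normal library, where Hoxc and Hoxd reached 5.63 CPM at most. The macrophage, other leukocyte and proliferation sums also lay above every normal library in all 5. Col6a3 and Col3a1 were the most abundant fibroblast genes in metastases (207 ± 161 and 152 ± 60.7 CPM), Pdgfra (6.60) and Col6a3 (5.92) had the largest rises on the log2 scale, and the lung fibroblast gene Tcf21 had no count. Pericyte and smooth muscle genes summed to 11.8 to 58.8 and 12.7 to 102 CPM, and 1 of 5 tested genes fell, Rgs5, a call lost without normal lung replicate 2 (-4.62, adjusted p = 0.07). Myh11 and Pdgfrb, highest over all 10 libraries, were at 17.3 and 2.70 CPM in normal lung and 3.16 and 13.1 CPM in metastases. Epithelial genes, of interest since the tumour line is epithelial in origin, summed to 2.66 to 30.8 and 16.4 to 167 CPM. Of 5 tested, Krt8 rose (0.245 ± 0.0744 against 21.9 ± 13.8 CPM), Sftpb did not pass (adjusted p = 0.123), and Krt5 had no count. Macrophage genes summed to 54.2 to 233 and 281 to 1412 CPM, with 3 of 7 tested higher (C1qb, Marco and Lyz2) and Lyz2 and Cd68 on top. Other leukocyte genes summed to 8.21 to 34.7 and 106 to 208.5 CPM, with 2 of 4 tested higher, Ptprc (CD45) and S100a8. Mesothelial genes, none of them tested, summed to 0.0235 to 3.96 and 0.298 to 19.2 CPM. The part of each cell type in the rise of Hoxc6, Hoxc10, Hoxd8 and Hoxd10 was not tested, and with bulk RNA of 1 gate the cells that carry these transcripts cannot be told apart.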

How the data were processed

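Per the submitters' processing notes, the authors' tools were HTSeq 0.6.1, TopHat2 2.0.13, DESeq2 1.6.3 and Cufflinks 2.2.1, and the builds named are mm10 and GRCm38. Neither the annotation nor the strand setting is given in the sources. The deposited counts are whole numbers per gene and library, from a kit that amplifies RNA (Ovation RNA-Seq V2) and paired 100 bp reads. Rows that name no gene, such as reads outside genes, were left out. Reads outside genes took 55.4 to 64.7% of all rows' counts in normal lung. In metastases they took 57.9% in replicate 2 and 71.8 to 73.7% in the other replicates. The authors' FPKM table covers 24460 genes and all 39 Hox genes, and served for levels compared between genes and as an alternative.

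Counts were filtered with filterByExpr (11823 genes, 10 of them Hox genes), scaled by TMM and compared with edgeR 4.0.16 in R 4.3.3 (quasi-likelihood F test, robust, two-sided, Benjamini-Hochberg over all tested genes, threshold 0.05). A positive log2 fold change means higher in metastases, and its SE is the absolute change over the square root of F. The common biological coefficient of variation was 1.01. A gene was called risen or fallen only past the threshold. Alternatives were DESeq2 1.42.0, limma 3.58.1 on log2(FPKM + 1) and log2(FPKM + 0.1), other scalings and filters, a threshold of 0.01, subsets of libraries and the replicate number as a block. Intervals and limits for a count of 0 cover counting error only.

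All tested Hox genes are named. Some results that belong to these gene sets are not reported here. From each list of related genes the 2 largest called changes each way are named, and the 2 genes of highest level for lists without a call and for cell types. Ezh2, Meis2, Tcf21 and genes with no count that fall outside this rule were chosen after their values were seen. The Hox genes and all lists were chosen with earlier results of these data known. Positions are from GENCODE M21, promoters from RefSeq (GRCm38.p6). The plots used matplotlib 3.10.9 under Python 3.11.15.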

Additional observations from a re-analysis of the deposited data

Results flagged for a closer look

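For each tested Hox gene and each cluster sum, the 5 libraries of a group were checked for 1 library whose gap to its nearest neighbour exceeds 0.71 of the group's range. Chance marks about 1 in 20 groups this way if values are normally distributed and groups independent. Here CPM was used without a log and the cluster sums contain the tested genes, so that rate cannot be used. Of the 28 groups checked, 10 were marked, all by their highest library, and whether this exceeds chance was not tested. In normal lung replicate 1 stood far above the others for Hoxb3 (35.4 CPM), Hoxb5 (132.6 CPM) and the Hoxb cluster sum (186.9 CPM), of which Hoxb5 is the main part. Replicate 4 stood far above for the Hoxd sum (4.83 CPM), through Hoxd9. In metastases the high library was a different one from gene to gene: replicate 1 for Hoxa5 (31.2 CPM), replicate 2 for Hoxa2 (13.1 CPM), replicate 3 for Hoxb3 (28.8 CPM) and Hoxc6 (48.7 CPM), replicate 4 for Hoxb5 (23.4 CPM) and replicate 5 for Hoxb4 (13.3 CPM).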

How the results depend on the processing

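The count of risen Hox genes was 4 and of fallen Hox genes 3. With the libraries numbered 1 and 2 alone, 2 rose (Hoxc10 and Hoxd10) and 1 fell (Hoxb5). After scaling to pan-endothelial genes 0 fell, and at a threshold of 0.01 only Hoxa3 did, 1 gene. The sign turned for Hoxb3 (2.16), Hoxb4 (1.04) and Hoxb5 (0.35) under pan-endothelial scaling, and for Hoxb3 with libraries 3 to 5 only (0.84) and without normal lung replicate 1 (0.28). Leaving out single libraries gave -1.93 to 0.28 for Hoxb3. None of these 5 values passed the threshold, and the cause was not tested. With 1 library at 1 CPM as the rule, 11 Hox genes were detected in normal lung and 16 in metastases, and with all 5 libraries required, 4 in metastases. The Hoxd log2 ratio of summed levels was 5.00, and 4.73 to 6.94 on leaving out single libraries, the highest without normal lung replicate 4. Other calls lost were Hoxa3 (adjusted p = 0.226), Hoxc6 (0.191) and Hoxd8 (0.0609) with libraries 1 and 2 alone, Hoxd10 (0.055) and Hoxb5 (0.282) with libraries 3 to 5 alone, and Hoxa5 with libraries 1 and 2 alone (0.743) or without metastasis replicates 4 and 5 together (0.14). Hoxd10 was not tested in 3 settings with another filter.

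With the replicate number as a block, 4 Hox genes rose and 3 fell, and all 7 called genes passed (Hoxb5 at -4.12, Hoxd10 at 5.67). Same-numbered libraries of the 2 groups deviated together only weakly (correlations 7e-04 to 0.142, best with their own number in 3 of 5), so the numbers were not taken to pair the samples. Without a filter on low counts all 28 Hox genes with a count were tested, and 5 rose, the added one being Hoxc8, whose counts all came from metastasis replicate 4.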
